A study of Homo sapiens with 36 samples.

Results

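The integrated stress response genes are described here as 10 rows of an mRNA count table, chosen by gene symbol: ATF4, ATF3, ATF5, DDIT3, TRIB3, CHAC1, ASNS, PPP1R15A, CEBPB and VLDLR. The table held 60591 rows, and each of the 10 symbols was found in it. The 18 mRNA libraries came from Caco-2 and HT-29, 2 lines derived from human colorectal cancer, with 3 biological replicates in each of 6 groups. Cells were treated for 24 h with 300 µM cobalt chloride (CoCl2) or with 5 µM of an oxyquinoline derivative (Oxy), agents used to mimic hypoxia by blocking the hydroxylases that mark hypoxia inducible factors for degradation. By the labels, control cells received 0.5 µl of DMSO per ml of medium, which was also the amount that carried Oxy. The study's methods for Caco-2 put DMSO at 0.5%, a larger amount. CoCl2 was dissolved in water, and the labels name no DMSO for it while the study's methods add it for Caco-2, so whether the CoCl2 and control media matched in DMSO was not settled. All Caco-2 groups had been differentiated for 21 days in Eagle's medium, and all HT-29 groups were grown in McCoy's medium without that step, so line, culture state and medium cannot be told apart in any comparison between the lines.

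Several kinases sense different stresses and meet at one step of the integrated stress response, the phosphorylation of the translation initiation factor eIF2. This slows protein synthesis in general while the mRNA of ATF4, which carries upstream open reading frames, is translated more. ATF4 is a bZIP transcription factor that acts with partners such as C/EBP proteins on genes of amino acid supply, redox balance and, through CHOP (encoded by DDIT3), cell death. PPP1R15A (GADD34) brings a phosphatase to eIF2 and closes the loop. An mRNA library shows transcript levels and not eIF2 phosphorylation or ATF4 protein.

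Library totals ran from 12925719 to 22332639 counts, of which the top 20 genes of each library made up 8.73% to 14.7%. All 6 markers of colon epithelium were detected in every group, with a summed level from 4645 to 7974 CPM (counts scaled to a common library size), although in HT-29 the mean of VIL1 went from 205 CPM in control to 33.6 with CoCl2 and that of CDX2 from 12.8 to 4.63. The 4 leukocyte markers summed to at most 1.08 CPM. The 5 fibroblast markers summed to 26.8 to 38.6 CPM over the Caco-2 libraries and 3.06 to 7.93 over the HT-29 libraries. The 3 endothelial markers went from 8.38 to 12.5 CPM in Caco-2 controls to 2.16 to 2.91 with CoCl2, and from 1.39 to 2.32 to 0.299 to 0.576 in HT-29. The mean share of mitochondrial counts in Caco-2 was 6.52% in control, 5.22% with CoCl2 and 4.63% with Oxy, and in HT-29 it was 7.17%, 8.09% and 6.13%. The mean TMM scaling factor, which corrects library size for differences in composition, was 1.12, 0.894 and 1.00 in these groups of Caco-2 and 1.19, 0.770 and 1.09 in HT-29. These marker levels, shares and factors moved with treatment or line, and their part in the results below was not tested. Intervals on single libraries would cover counting error only, because no molecular identifiers are described for these reads.

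The promoters were searched because ATF4 and its relatives bind short DNA elements, and the stretches around the matches are shown for the members that had one. RefSeq windows on GRCh38.p14 were available for all 10 members, 19 windows in all, and the 250 bases before each start were searched on both strands. The letters TGATGNAA, a form of the C/EBP and ATF composite element, stood in 3.14% of 35116 windows and in those of ASNS, ATF3 and CHAC1. The palindrome TGACGTCA, the cyclic AMP response element, stood in 1.65% of the windows and among the members in that of PPP1R15A. No match printed here overlaps a match of the other motif. Capitals mark the match, and each stretch of 30 bases is written along the strand of the gene.
ASNS: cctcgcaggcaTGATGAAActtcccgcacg
ATF3: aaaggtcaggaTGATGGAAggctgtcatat
CHAC1: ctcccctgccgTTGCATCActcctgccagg
PPP1R15A: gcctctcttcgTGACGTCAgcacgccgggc
The ASNS stretch is at chr7:97872458-97872487 on the minus strand, 68 to 61 bases before 1 of its 2 RefSeq starts, within an exon annotated in GENCODE v44. The ATF3 stretch is at chr1:212565205-212565234 on the plus strand, upstream of the annotated gene, 191 to 184 bases before the more distal of its 2 RefSeq starts. The CHAC1 stretch, at chr15:40953251-40953280 on the plus strand, holds the element on the opposite strand, 209 to 202 bases before the start. The PPP1R15A stretch is at chr19:48872352-48872381 on the plus strand, 58 to 51 bases before the start, and the stretches of CHAC1 and PPP1R15A lie in annotated exons. These are matches of letters, and nothing was measured about binding.

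Without either agent the whole group stood higher in HT-29 than in differentiated Caco-2. In the control libraries 8 of the 10 members were called higher and 0 lower, where 45.8% of the 17921 genes tested were called, 21.6% higher and 24.2% lower. A gene is described as having risen or fallen here when its adjusted p (FDR, edgeR quasi-likelihood test with Benjamini-Hochberg adjustment over all genes tested) was under 0.05, and as called when its log2 fold change was also over 1 in size. ATF4 was 0.33 ± 0.06 (SE) higher on the log2 scale and ATF5 0.80 ± 0.09 higher, both under the fold limit, so that 10 of 10 passed the FDR alone, where 79.1% of all genes did (39.5% higher, 39.6% lower). The called members ranged from 1.44 for VLDLR to 5.06 for ATF3. The median of the 10 differences was 1.85, against −0.00 over all genes tested.

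Per transcript length, from the RPKM values the authors deposited, ATF4 had the highest mean level of the 10 members in the controls of both lines, at 143 ± 2.94 RPKM (SD, n = 3) in Caco-2 and 171 ± 4.58 in HT-29. TRIB3 followed with 33.8 ± 2.04 in Caco-2 and 140 ± 21.5 in HT-29, then PPP1R15A with 25.0 ± 0.984 and 65.0 ± 7.35, and DDIT3 with 16.4 ± 1.17 and 58.5 ± 7.68. In HT-29 controls the ranges of PPP1R15A and DDIT3 overlapped, although PPP1R15A was the higher in each library. It had 56.6, 70.2 and 68.3 RPKM, against 49.8, 61.1 and 64.5 for DDIT3. CHAC1, CEBPB and ATF3, at 42.8 ± 1.35, 42.3 ± 2.00 and 36.9 ± 8.64 RPKM, also overlapped there, and their order changed between libraries. In Caco-2 controls the low end held CHAC1 at 1.55 ± 0.324, ATF3 at 1.17 ± 0.120 and VLDLR at 0.861 ± 0.0654. The first 2 of these overlapped within 1 SD, while their libraries did not. CHAC1 ran from 1.33 to 1.93 RPKM and ATF3 from 1.08 to 1.31. ASNS was listed at 0 in all 9 Caco-2 libraries of that table, although the count table held reads for it in each, and stood at 3.75 ± 0.248 RPKM in HT-29 controls. The order of genes by level was thus led by the same 4 genes in both lines.

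**Figure D1:**
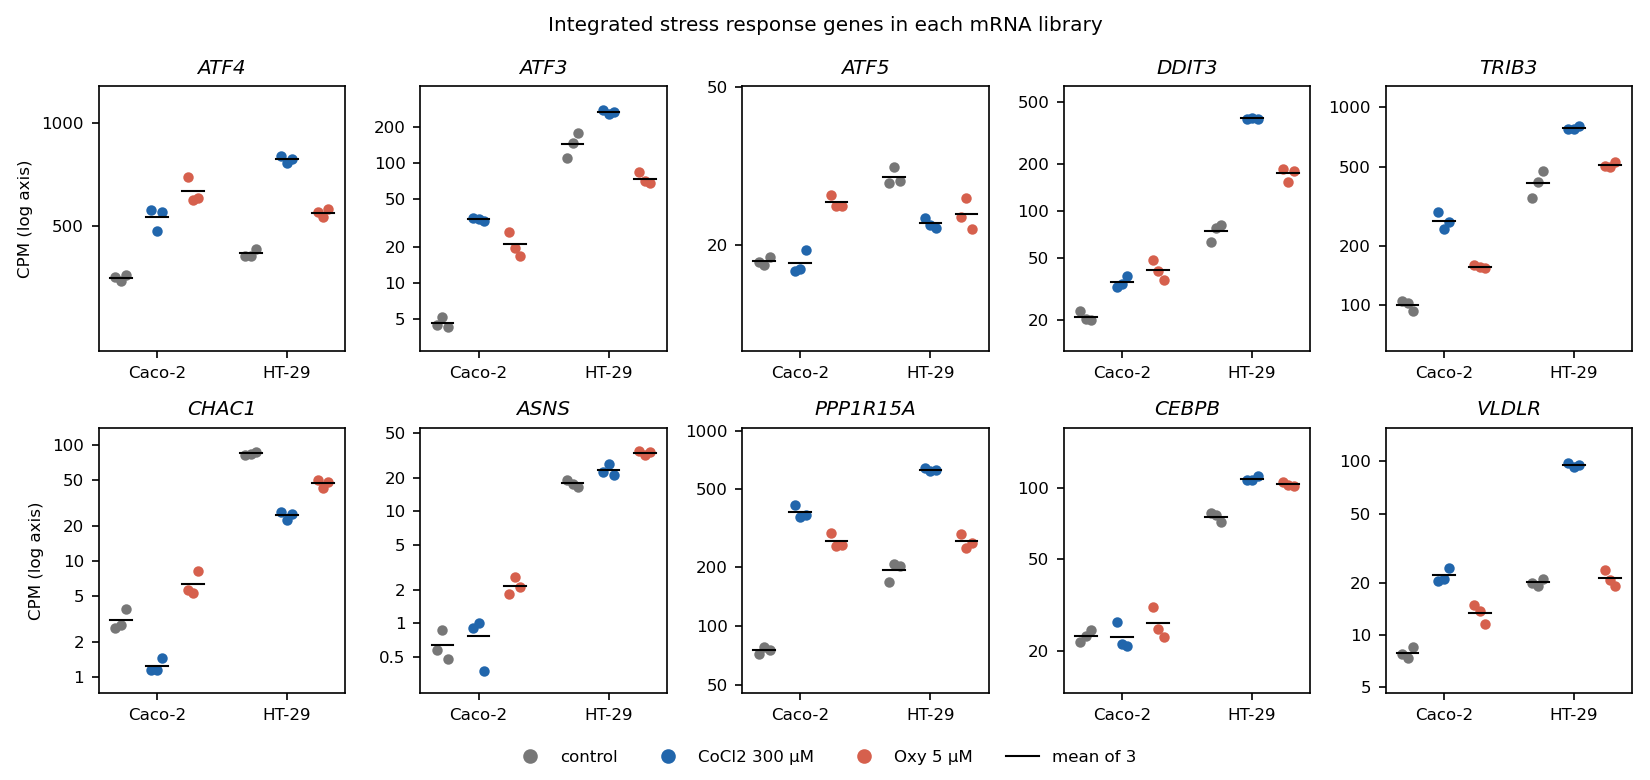
CPM of the 10 genes in each of the 18 mRNA libraries, 1 point per library and a bar at the mean of 3, on log axes. HT-29 controls lie above Caco-2 controls for every gene, and the groups of CHAC1 fall in a different order from those of DDIT3 and PPP1R15A.

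The treatments moved the 10 genes unequally. In Caco-2, CoCl2 gave 4 members called higher and 1 lower, where 23.4% of 16034 genes were called, 9.13% higher and 14.2% lower. Oxy gave 4 higher and 0 lower, against 4.43% higher and 7.27% lower of all genes (11.7% in all). In HT-29, CoCl2 gave 3 higher and 1 lower, which as a share is close to the 41.3% of 15812 genes called in that comparison (17.4% higher, 23.9% lower). Oxy in HT-29 gave 1 higher and 0 lower, below the 17.1% of all genes called (9.50% higher, 7.57% lower). At an FDR under 0.05 with no fold limit, 6 members rose and 1 fell with CoCl2 in Caco-2, where 64.7% of all genes passed (31.6% higher, 33.1% lower), and 9 rose and 0 fell with Oxy, where 50.4% passed (25.7% higher, 24.7% lower). In HT-29, 8 rose and 2 fell with CoCl2, where 82.8% passed (40.7% higher, 42.2% lower), and 6 rose and 3 fell with Oxy, where 68.8% passed (34.7% higher, 34.0% lower). The median log2 fold changes of the 10 genes were 0.66, 0.92, 0.89 and 0.35 in these 4 comparisons, and over all genes tested they were −0.03, −0.02, −0.03 and 0.01. Each pair of treatments in a line was set against the same 3 control libraries, so the responses to CoCl2 and Oxy are not independent of each other. Scaling by library size alone, without TMM, shifted the median of all genes by −0.32 and −0.15 with CoCl2 and Oxy in Caco-2 and by −0.63 and −0.14 in HT-29. The split of called genes then moved from 1464 higher and 2283 lower to 870 and 3546 with CoCl2 in Caco-2, and from 711 and 1165 to 500 and 1644 with Oxy. In HT-29 it moved from 2749 and 3775 to 1295 and 6250 with CoCl2, and from 1502 and 1197 to 1225 and 1596 with Oxy. Directions below are relative to the TMM scaling, and a member whose direction turned with library size is named as such.

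**Figure D2:**
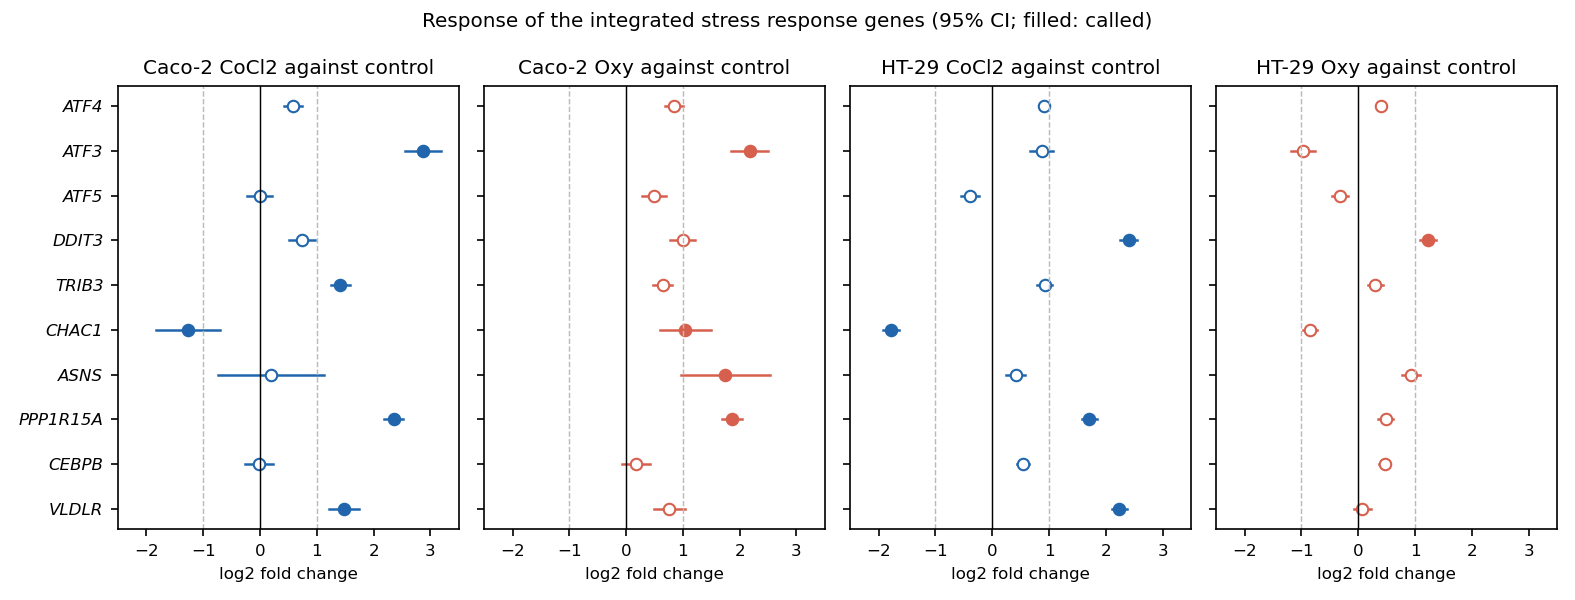
Log2 fold change against control of the 10 genes in the 4 treatment comparisons, with 95% confidence intervals, dashed lines at the fold limit of 1 and filled points for called genes. ATF3 and PPP1R15A lead in Caco-2, DDIT3 and VLDLR lead with CoCl2 in HT-29, and CHAC1 lies to the left of 0 in 3 of the 4 panels.

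ATF4, the factor at the centre of the response, lies on chromosome 22 (GRCh38, GENCODE v44, 39519695 to 39522683, plus strand). Its levels in the 3 Caco-2 controls were 356, 345 and 360 CPM, with CoCl2 556, 484 and 551, and with Oxy 696, 596 and 606. In HT-29 the controls had 409, 410 and 430 CPM, CoCl2 801, 765 and 782, and Oxy 551, 531 and 560. No treated library of either line overlapped its controls. The ATF4 transcript rose in all 4 comparisons and was called in 0, with log2 fold changes of 0.58 ± 0.08 (SE, FDR = 4.87e-07) and 0.84 ± 0.08 (FDR = 3.52e-09) for CoCl2 and Oxy in Caco-2. In HT-29 the values were 0.91 ± 0.04 with CoCl2 (FDR = 9.26e-17) and 0.39 ± 0.04 with Oxy (FDR = 7.32e-09). Oxy exceeded CoCl2 in Caco-2, where the CoCl2 to Oxy difference was −0.25 ± 0.08 (FDR = 0.00821), and the order was opposite in HT-29, with 0.52 ± 0.04 (FDR = 2.33e-11). Neither order was firm: the Caco-2 difference for ATF4 was −0.19 (FDR = 0.0736) without the second CoCl2 library, and the HT-29 one was 0.0193 (FDR = 0.670) with scaling by library size alone. Doses of the agents differ, so these differences belong to 300 µM and 5 µM.

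ATF3, a bZIP factor of the early stress response that ATF4 can induce, had the largest responses among the members in Caco-2. It lies on chromosome 1 (212565334 to 212620777, plus strand). Caco-2 controls held 4.42, 5.16 and 4.29 CPM, from 62 to 77 counts, the CoCl2 libraries 34.7, 33.9 and 33.0, and the Oxy libraries 26.4, 19.4 and 16.9. All treated libraries lay above all controls, with log2 fold changes of 2.87 ± 0.15 (FDR = 3.88e-14) and 2.17 ± 0.15 (FDR = 3.34e-11), which are 7.30-fold and 4.51-fold.

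In HT-29, ATF3 began higher and the agents moved it in opposite directions. The controls had 110, 146 and 178 CPM, CoCl2 273, 257 and 268, and Oxy 84.3, 70.1 and 67.9. The controls were spread widely, CoCl2 lay above all of them and Oxy below all of them. ATF3 rose by 0.87 ± 0.10 with CoCl2 (FDR = 5.33e-09) and fell by 0.97 on the log2 scale with Oxy (SE 0.10, FDR = 3.03e-09), both under the fold limit. Without the third control library the CoCl2 value was 1.05, over the limit, and the Oxy value ran from −1.13 to −0.80 when libraries were left out in turn, passing the limit without the first control or the first Oxy library. The direct difference of CoCl2 over Oxy was 1.84 ± 0.10 in HT-29 (FDR = 4.56e-15) and 0.69 ± 0.13 in Caco-2 (FDR = 7.07e-05).

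DDIT3 encodes CHOP, the C/EBP family factor linked to cell death when stress persists. Its gene on chromosome 12 (57516588 to 57521737, minus strand) overlaps MARS1 and MBD6 on the other strand and an unnamed protein coding model on its own, and the use of strand in counting was not stated, so reads of these genes could have been mixed. Caco-2 controls had 22.7, 20.2 and 20.1 CPM, CoCl2 32.4, 34.0 and 38.5, and Oxy 48.2, 41.3 and 36.0. HT-29 controls had 63.2, 77.4 and 81.8, CoCl2 392, 397 and 391, and Oxy 187, 155 and 182. The CoCl2 libraries of HT-29 agreed closely and stood clear of every other group.

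DDIT3 rose in all 4 comparisons. In HT-29 the log2 fold change was 2.40 ± 0.07 with CoCl2 (5.28-fold, FDR = 3.35e-21) and 1.23 ± 0.07 with Oxy (2.34-fold, FDR = 2.39e-14), and it was the 1 member called with Oxy there. In Caco-2 it was 0.74 ± 0.11 with CoCl2 (FDR = 2.94e-06) and 0.99 ± 0.11 with Oxy (FDR = 6.15e-08). The latter lay just under the fold limit and passed it with DESeq2, at 1.01, and with no filter on low counts, at 1.02. MARS1, the overlapping gene, had a log2 fold change of 0.08 ± 0.05 with CoCl2 in HT-29 (FDR = 0.194) and −0.996 ± 0.08 in Caco-2 (FDR = 4.69e-11).

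ATF5 and CEBPB, the remaining bZIP factors, moved little. ATF5, which like ATF4 has a translation controlled by upstream open reading frames, ran from 17.2 to 19.4 CPM over the Caco-2 control and CoCl2 libraries, which overlapped, and from 25.0 to 26.8 with Oxy. In HT-29 it ran from 28.6 to 31.5 CPM in control, from 22.1 to 23.3 with CoCl2 and from 21.9 to 26.2 with Oxy. ATF5 thus rose with Oxy in Caco-2 by 0.50 ± 0.10 (FDR = 0.000300) and fell in HT-29 by 0.39 with CoCl2 (FDR = 3.02e-05) and by 0.32 with Oxy (FDR = 0.000294) on the log2 scale. The gene on chromosome 19 (49928702 to 49933935, plus strand) overlaps NUP62 and IL4I1 on the other strand.

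CEBPB encodes C/EBPβ, a partner with which ATF4 can pair. In Caco-2 its libraries lay between 21.1 and 31.1 CPM with all 3 groups overlapping, and neither treatment passed the test, at −0.02 ± 0.12 for CoCl2 (FDR = 0.894) and 0.18 ± 0.12 for Oxy (FDR = 0.214). In HT-29, controls of 71.5 to 78.0 CPM lay below CoCl2 at 108 to 113 and Oxy at 102 to 107, with rises of 0.54 ± 0.05 (FDR = 1.64e-10) and 0.46 ± 0.05 (FDR = 5.57e-09). With scaling by library size alone, the HT-29 CoCl2 value of CEBPB was −0.09, so its direction depended on the scaling.

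PPP1R15A, the inducible subunit of the eIF2 phosphatase, rose in every treatment comparison. Its gene is on chromosome 19 (48872212 to 48876059, plus strand). Caco-2 controls had 72.2, 78.1 and 75.0 CPM, CoCl2 417, 361 and 371, and Oxy 301, 257 and 261. HT-29 controls had 168, 208 and 203 CPM, CoCl2 645, 621 and 631, and Oxy 295, 251 and 266. No treated library overlapped the controls of its line, and CoCl2 lay above Oxy in both lines.

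The log2 fold change of PPP1R15A was 2.35 ± 0.08 with CoCl2 in Caco-2 (5.10-fold, FDR = 1.58e-17), 1.86 ± 0.08 with Oxy in Caco-2 (3.64-fold, FDR = 3.94e-15) and 1.71 ± 0.06 with CoCl2 in HT-29 (3.27-fold, FDR = 4.37e-19). With Oxy in HT-29 it was 0.48 ± 0.06 (FDR = 1.58e-07), under the fold limit. PPP1R15B, the constitutive subunit of the same phosphatase, rose by 0.92 ± 0.08 and 1.14 ± 0.08 in Caco-2 with CoCl2 and Oxy, and by 1.02 ± 0.06 and 0.45 ± 0.06 in HT-29. PPP1CA, a catalytic subunit, stayed between −0.10 and 0.20 in these comparisons.

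TRIB3 is a pseudokinase that CHOP and ATF4 induce and that restrains ATF4 in turn. On chromosome 20 (362835 to 397559, plus strand), it gave 105, 102 and 93.7 CPM in Caco-2 controls, 297, 242 and 264 with CoCl2, and 160, 156 and 154 with Oxy. In HT-29 the controls had 347, 418 and 473 CPM, CoCl2 776, 779 and 798, and Oxy 507, 497 and 528. Groups did not overlap in either line, although the HT-29 controls were spread almost up to the Oxy libraries. TRIB3 rose in all 4 comparisons, by 1.41 ± 0.08 with CoCl2 in Caco-2 (FDR = 1.48e-13), where it was called, and 0.64 ± 0.08 with Oxy (FDR = 3.72e-07). In HT-29 it rose by 0.92 ± 0.07 with CoCl2 (FDR = 7.29e-13) and 0.30 ± 0.07 with Oxy (FDR = 0.000213). Without the third HT-29 control the CoCl2 value was 1.03, past the limit.

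CHAC1, an enzyme that breaks down glutathione and a well known target of ATF4, went down with CoCl2 while most of the group went up. Its gene is on chromosome 15 (40952962 to 40956512, plus strand). HT-29 controls had 82.9, 84.3 and 88.2 CPM, CoCl2 26.7, 22.5 and 25.5, and Oxy 50.1, 42.7 and 48.7. The 3 groups were clearly apart, with the controls highest and CoCl2 lowest. CHAC1 fell by 1.78 on the log2 scale with CoCl2 (SE 0.07, 0.292 of the control level, FDR = 7.77e-19) and by 0.85 with Oxy (SE 0.06, FDR = 1.32e-12).

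In Caco-2, CHAC1 was near the lower end of what the depth resolves, holding 42 to 56 counts in controls, 14 to 27 after CoCl2 and 84 to 118 after Oxy. As CPM these were 2.68, 2.82 and 3.88 in control, 1.17, 1.16 and 1.46 with CoCl2, and 5.65, 5.34 and 8.33 with Oxy. CoCl2 lay below all controls and Oxy above all of them. CHAC1 fell by 1.27 with CoCl2 (SE 0.27, FDR = 0.000274) and rose by 1.04 ± 0.22 with Oxy (FDR = 0.000301), on the log2 scale. The call with Oxy rested on a value close to the limit: it was 0.89 with scaling by library size alone and ran from 0.83 to 1.22 when libraries were left out in turn, losing the call without the first control, the second control or the third Oxy library. With CoCl2 the leave-one-out values ran from −1.41 to −1.09.

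ASNS, the enzyme that makes asparagine, was the scarcest member in Caco-2, where a library held from 7 to 43 counts. The gene lies on chromosome 7 (97851677 to 97872542, minus strand), and it overlaps a long noncoding RNA on its own strand and a processed pseudogene on the other. Caco-2 controls had 0.582, 0.872 and 0.485 CPM, CoCl2 0.917, 1.02 and 0.379, and Oxy 1.82, 2.58 and 2.12. Control and CoCl2 libraries overlapped, and Oxy stood above both. HT-29 controls had 19.0, 17.8 and 16.6 CPM, CoCl2 22.6, 26.5 and 21.2, and Oxy 34.8, 31.7 and 33.8, with no overlap between groups.

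Oxy raised ASNS in both lines, by 1.74 ± 0.38 in Caco-2 (3.35-fold, 95% interval of the log2 value from 0.96 to 2.53, FDR = 0.000500) and by 0.92 ± 0.08 in HT-29 (FDR = 4.25e-11). With CoCl2 the value in Caco-2 was 0.19 ± 0.45 (FDR = 0.723), with an interval from −0.74 to 1.12, so a change of up to the fold limit was not resolved at this depth. In HT-29 it rose with CoCl2 by 0.41 ± 0.08 (FDR = 7.11e-05), a direction that turned to −0.22 with scaling by library size alone. CoCl2 stood below Oxy by −1.55 ± 0.38 in Caco-2 (FDR = 0.00138) and by −0.51 ± 0.08 in HT-29 (FDR = 1.60e-06).

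VLDLR is a receptor that takes up lipoproteins and a known target of both ATF4 and hypoxia inducible factors. Its gene lies on chromosome 9 (2621182 to 2660056, plus strand) and overlaps VLDLR-AS1 on the other strand. Caco-2 controls had 7.80, 7.38 and 8.59 CPM, CoCl2 20.6, 21.1 and 24.4, and Oxy 14.9, 13.7 and 11.6. HT-29 controls had 20.0, 19.1 and 21.1 CPM, CoCl2 97.1, 92.5 and 95.3, and Oxy 23.7, 20.7 and 19.1. In HT-29 the Oxy libraries overlapped the controls and CoCl2 stood far above both.

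VLDLR rose with CoCl2 by 2.24 ± 0.07 in HT-29 (4.71-fold, FDR = 2.19e-21) and by 1.48 ± 0.13 in Caco-2 (2.79-fold, FDR = 5.23e-10). With Oxy it rose by 0.76 ± 0.13 in Caco-2 (FDR = 4.99e-05), and in HT-29 the value was 0.07 ± 0.07 (FDR = 0.390, 95% interval from −0.08 to 0.23). On the deposited log2 scale, which adds a pseudocount of 1 to the RPKM, the Caco-2 CoCl2 values of VLDLR and CHAC1 were 0.84 and −0.66, under the fold limit, as that scale compresses low levels.

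Set directly against each other, the agents separated the members in different ways in the 2 lines. In Caco-2, 0 members were called higher and 2 lower with CoCl2 than with Oxy, CHAC1 at −2.32 ± 0.25 (FDR = 4.95e-08) and ASNS as given above, where 11.7% of all genes were called (5.21% higher, 6.44% lower). At an FDR alone, 4 were higher and 5 lower, where 49.6% of all genes passed (24.4% higher, 25.2% lower). In HT-29, 4 were called higher and 0 lower, where 29.9% were called (10.8% higher, 19.2% lower), and at an FDR alone 6 were higher and 2 lower, where 77.7% passed (37.1% higher, 40.6% lower). These were VLDLR at 2.16 ± 0.07 (FDR = 1.06e-20), ATF3 at 1.84, PPP1R15A at 1.22 ± 0.06 (FDR = 8.89e-16) and DDIT3 at 1.17 ± 0.07 (FDR = 1.25e-14). With scaling by library size alone PPP1R15A and DDIT3 were at 0.73 and 0.68 in that comparison, under the limit. CHAC1 was lower with CoCl2 in HT-29 as well, by −0.92 ± 0.07 (FDR = 5.32e-12), and TRIB3 was higher with CoCl2 in both lines, by 0.77 ± 0.08 in Caco-2 (FDR = 1.62e-08) and 0.62 ± 0.07 in HT-29 (FDR = 2.88e-09). With library size alone the HT-29 value of TRIB3 was 0.12 (FDR = 0.0773). DDIT3 in Caco-2 was at −0.26 ± 0.11 (FDR = 0.0480), with overlapping libraries, and at −0.26 with DESeq2 (FDR = 0.0897), so it passed the test by a narrow margin in 1 fit and missed it in the other. CEBPB did not pass the test in either line, at −0.20 ± 0.12 (FDR = 0.173) and 0.08 ± 0.05 (FDR = 0.144), and ATF5 passed it in Caco-2 at −0.51 ± 0.10 (FDR = 0.000261) and not in HT-29 at −0.08 ± 0.08 (FDR = 0.376).

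Whether the lines responded differently was tested as an interaction over all 18 libraries. For CoCl2, 1 member was called with a more positive response in HT-29, DDIT3 at 1.56 ± 0.14 (FDR = 2.17e-11), and 1 with a less positive one, ATF3 at −2.10 ± 0.21 (FDR = 2.89e-10), where 21.6% of all genes were called (7.79% and 13.8%). At an FDR alone, 4 members were more and 4 less positive in HT-29, where 49.8% of genes passed (21.1% and 28.6%). Among those under the fold limit, PPP1R15A (−0.75 ± 0.11, FDR = 7.37e-07) and TRIB3 (−0.60 ± 0.11, FDR = 3.91e-05) responded less in HT-29, and VLDLR (0.65 ± 0.14, FDR = 0.000268) and CEBPB (0.46 ± 0.12, FDR = 0.00231) more. The fall of CHAC1 was not shown to differ between the lines, at −0.62 ± 0.28 (FDR = 0.0659, 95% interval from −1.19 to −0.05). ATF5 differed by −0.49 ± 0.12 (FDR = 0.00122). ATF4 was at 0.22 ± 0.09 (FDR = 0.0456), a difference that was 0.20 (FDR = 0.11) with no filter on low counts, 0.0141 (FDR = 0.921) with library size alone and 0.15 (FDR = 0.176) without the second Caco-2 CoCl2 library. Over all the alternative fits the ATF4 difference ran from 0.0141 to 0.32. The median of all genes in the CoCl2 line difference was −0.13 in the main fit and −0.03 with DESeq2 size factors. CEBPB was at 0.25 (FDR = 0.0744) with library size alone, and CHAC1 passed the test there, at −0.82 (FDR = 0.0152), and without the third Caco-2 control, at −0.80 (FDR = 0.0241). ASNS was not shown to differ, at 0.13 ± 0.40 (FDR = 0.833, 95% interval from −0.69 to 0.95).

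For Oxy the line differences that passed the FDR ran one way. In HT-29, 8 of the 10 members responded less than in Caco-2 at an FDR under 0.05, a mark that 42.9% of all genes passed (20.9% higher, 22.0% lower), and 3 were called, where 15.2% of genes were (8.96% higher, 6.24% lower). ATF3 differed by −3.16 ± 0.21 (FDR = 6.22e-14), CHAC1 by −1.91 ± 0.19 (FDR = 5.69e-10) and PPP1R15A by −1.39 ± 0.11 (FDR = 2.93e-12). The other 5 that passed, ASNS, ATF5, VLDLR, ATF4 and TRIB3, differed by −0.85, −0.83, −0.70, −0.46 and −0.36. DDIT3 was not shown to differ, at 0.22 ± 0.14 (FDR = 0.209), nor was CEBPB, at 0.27 ± 0.12 (FDR = 0.0772). ATF3, ATF5 and CHAC1 rose with Oxy in Caco-2 and fell with it in HT-29. The count of 8 was not kept in every fit: TRIB3 was at −0.24 (FDR = 0.0750) without the third HT-29 control, and ASNS was at −0.77 (FDR = 0.0986) without the first Caco-2 control, −0.70 (FDR = 0.115) without the third one and −0.70 (FDR = 0.11) without the second Caco-2 Oxy library.

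**Figure D3:**
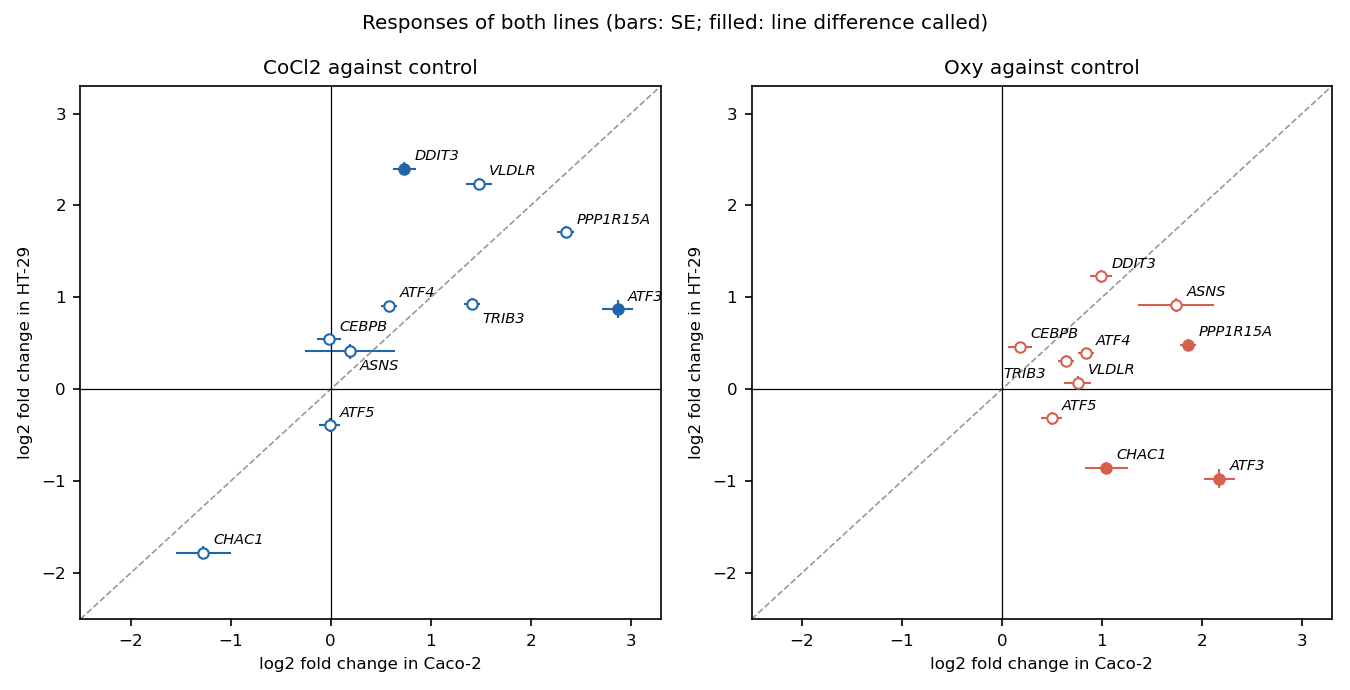
Log2 fold change in HT-29 against that in Caco-2 for each of the 10 genes, for CoCl2 and for Oxy, with SE bars, the line of equal response dashed and filled points where the line difference was called. With Oxy, ATF3, CHAC1 and ATF5 lie in the part of the plot that is positive in Caco-2 and negative in HT-29, and with CoCl2, DDIT3 and ATF3 lie on opposite sides of the dashed line.

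Around the members, 78 further genes in 6 lists were followed by role. Of the 7 eIF2 kinases and their activators, none was called in Caco-2 with either agent, and in HT-29 CoCl2 gave 1 higher and 2 lower and Oxy 1 higher. As shares these were close to those of all genes in HT-29, 41.3% and 17.1%, and below the 23.4% and 11.7% of Caco-2. EIF2AK3 (PERK), the kinase that senses unfolded protein in the endoplasmic reticulum, rose in all 4 comparisons, by 0.77 ± 0.09 and 0.99 ± 0.09 in Caco-2 with CoCl2 and Oxy and by 1.45 ± 0.06 and 0.42 ± 0.06 in HT-29. EIF2AK4 (GCN2), which senses uncharged tRNA, fell in all 4, by 0.59, 0.46, 1.26 and 0.64 on the log2 scale in the same order. EIF2AK1 (HRI), which senses heme shortage, rose by 0.57, 0.36, 0.53 and 0.15. EIF2AK2 (PKR), which senses double-stranded RNA, was called with Oxy in HT-29 alone of the 4, at 1.16 ± 0.09 (FDR = 2.32e-11), and this response differed between the lines by 1.15 ± 0.14 (FDR = 4.55e-08). OMA1, the mitochondrial protease that activates DELE1, fell by 1.40 with CoCl2 in HT-29 (FDR = 4.72e-11).

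The 10 genes of eIF2, its exchange factor eIF2B and the phosphatase had 0 called with CoCl2 in Caco-2, 1 higher with Oxy (PPP1R15B), 1 higher and 1 lower with CoCl2 in HT-29 (PPP1R15B and EIF2B3, the latter at −1.09 ± 0.11) and 0 with Oxy. Their medians stayed between −0.07 and 0.18, and where 0 were called, 5 were higher and 1 lower (CoCl2, Caco-2) and 2 higher and 5 lower (Oxy, HT-29) at an unadjusted p under 0.05. The 12 tRNA synthetase and export genes, classic targets of ATF4, had 0 called in any of the 4 treatment comparisons. The background for both lists was 23.4% of all genes called with CoCl2 and 11.7% with Oxy in Caco-2. In HT-29 it was 41.3% and 17.1%. In Caco-2 with CoCl2, 2 of the 12 tRNA genes rose and 7 fell at an FDR under 0.05, where 64.7% of all genes passed (31.6% higher, 33.1% lower). In HT-29 with CoCl2, 8 rose and 1 fell, where 82.8% passed (40.7% higher, 42.2% lower). With Oxy, 6 rose and 0 fell in Caco-2, where 50.4% of all genes passed (25.7% higher, 24.7% lower). In HT-29, 5 rose and 2 fell with Oxy, where 68.8% passed (34.7% higher, 34.0% lower). At an unadjusted p under 0.05 the higher and lower counts were 3 and 7, 7 and 0, 8 and 1, and 6 and 2, in the order CoCl2 and Oxy in Caco-2, then in HT-29.

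Amino acid synthesis and transport genes, also ATF4 targets, went both ways with CoCl2. In Caco-2, 3 of 19 were called higher and 7 lower, with a median of −0.33, and in HT-29 1 of the 18 tested was higher and 5 lower, with a median of −0.06. Among all genes, Caco-2 had 9.13% called higher and 14.2% lower, and HT-29 had 17.4% and 23.9%. Called higher in Caco-2 were CTH, which makes cysteine, at 1.81 ± 0.13, SLC7A11, the cystine carrier, at 1.62 ± 0.13, and SLC3A2, its heavy chain, at 1.10 ± 0.07. In HT-29 these were at 0.70 ± 0.07, 0.98 ± 0.06 and 1.18 ± 0.06, of which SLC3A2 alone was past the fold limit. On the lower side were the mitochondrial folate enzyme ALDH1L2 at −2.01 ± 0.25 in Caco-2 (not tested in HT-29), PSPH, the last enzyme of serine synthesis, at −1.52 ± 0.09 in Caco-2 and −2.30 ± 0.08 in HT-29, the mitochondrial enzyme PCK2 at −1.72 ± 0.10 and −2.78 ± 0.07, and the glycine carrier SLC6A9 at −1.95 ± 0.17 and −2.43 ± 0.10.

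With Oxy the same list had 2 called higher and 0 lower in Caco-2, MTHFD2 of the mitochondrial folate cycle at 1.44 ± 0.08 and the carrier SLC1A4 at 1.00 ± 0.10, with a median of 0.27. In HT-29 with Oxy, 0 were called higher and 1 lower, PSPH at −1.21 ± 0.07, and the median was −0.35. For 4 of the 19 genes the Oxy response was called lower in HT-29 than in Caco-2: SLC7A11 by −1.69 ± 0.15, SLC1A4 by −1.36 ± 0.12, CTH by −1.21 ± 0.16 and MTHFD2 by −1.13 ± 0.10. This line difference was called lower for 6.24% of all genes and higher for 8.96%. At an FDR alone it was lower for 15 of the 19 genes and higher for 1, where 22.0% and 20.9% of all genes were. Among the controls of HT-29 and Caco-2, 16 of these 19 genes and 11 of the 12 tRNA genes were called higher in HT-29, as were 8 of the 10 members. Between these controls, 21.6% of all genes were called higher in HT-29 and 24.2% lower.

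Other targets of ATF4 and CHOP held the single gene that rose most among the 6 lists in each of the 4 comparisons. Of the 15 tested in each line, Caco-2 had 7 called higher and 2 lower with CoCl2. The background for all genes there was 23.4% called, 9.13% higher and 14.2% lower. HT-29 had 8 higher and 3 lower with CoCl2, against 41.3% of all genes (17.4% higher, 23.9% lower). With Oxy, 4 were higher and 0 lower in Caco-2, against 11.7% of all genes (4.43% higher, 7.27% lower). For HT-29 with Oxy, 4 were higher and 1 lower, against 17.1% (9.50% higher, 7.57% lower). DDIT4, an inhibitor of mTORC1 and also a hypoxia target, rose by 3.85 ± 0.12 and 2.36 ± 0.12 in Caco-2 with CoCl2 and Oxy and by 2.26 ± 0.07 and 0.70 ± 0.07 in HT-29. GDF15, a secreted stress cytokine, rose by 3.78 ± 0.12, 2.17 ± 0.13, 2.15 ± 0.08 and 1.09 ± 0.07 in the 4 comparisons. ERO1A, the oxidase of the endoplasmic reticulum and also a hypoxia target, rose by 2.76 ± 0.08, 2.03 ± 0.08, 3.27 ± 0.06 and 1.46 ± 0.06. SQSTM1, an autophagy receptor shared with NRF2 signalling, rose by 2.40 ± 0.08 and 0.65 ± 0.08 in Caco-2 and by 4.92 ± 0.05 and 2.72 ± 0.04 in HT-29, where it was the highest of the list with both agents.

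NUPR1, a stress-induced chromatin protein, was called lower with CoCl2 in Caco-2, at −1.46 ± 0.47, and higher in HT-29, at 1.24 ± 0.09. It was scarce in Caco-2, with 10 to 17 counts in the controls and 4 to 6 with CoCl2. JDP2, a bZIP repressor, had the same signs as CHAC1 in the 4 comparisons, at −1.01 ± 0.11, 0.75 ± 0.10, −1.58 ± 0.07 and −0.86 ± 0.06. FGF21 was not tested in Caco-2, where it was under the filter on low counts, and STC2 was not tested in HT-29. In HT-29, FGF21, a secreted metabolic hormone, was scarce, with 16 to 72 counts in the controls, against 0 to 3 for CoCl2 and 17 to 19 for Oxy, and was called lower with both agents (FDR = 5.77e-08 and FDR = 0.00228). ADM2, a secreted peptide, was called lower with CoCl2 there, at −1.52 ± 0.07.

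The other arms of the unfolded protein response had more called genes in HT-29. In Caco-2, 1 of these 14 genes was called higher and 1 lower with CoCl2 and 1 higher with Oxy, whereas in HT-29, 7 were higher with CoCl2 and 9 with Oxy, and 0 were lower. Of all genes, 17.4% and 9.50% were called higher in HT-29 and 9.13% and 4.43% in Caco-2. By the test of the line difference itself, 7 of the 14 were called more positive in HT-29 for CoCl2 and 6 for Oxy. The shares of all genes called so were 7.79% and 8.96%. In the other direction 0 were called, where 13.8% and 6.24% of all genes were. At an FDR alone, 13 of 14 were more and 1 less positive for each agent. All genes tested had 21.1% more and 28.6% less positive for CoCl2, and 20.9% and 22.0% for Oxy. The medians of the 14 genes were 0.11, 0.25, 1.00 and 1.24 in the 4 treatment comparisons. HSPA5 (BiP), the main chaperone of the endoplasmic reticulum, rose by 0.69 ± 0.09 and 0.45 ± 0.09 in Caco-2 and by 1.86 ± 0.06 and 1.93 ± 0.06 in HT-29. The line differences of HSPA5 were called for both agents, at 1.06 ± 0.11 (FDR = 1.22e-09) for CoCl2 and 1.47 ± 0.11 (FDR = 1.41e-12) for Oxy. DNAJB9, a cochaperone of BiP, rose in all 4 comparisons, from 1.44 to 2.67, and CRELD2 fell by 1.30 with CoCl2 in Caco-2. Between the controls, 2 of the 14 were called higher and 2 lower in HT-29, where 21.6% and 24.2% of all genes were. At an FDR alone, 3 were higher and 9 lower in HT-29 controls, where 39.5% and 39.6% of all genes were. The median of the 14 control differences was −0.50.

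**Figure D4:**
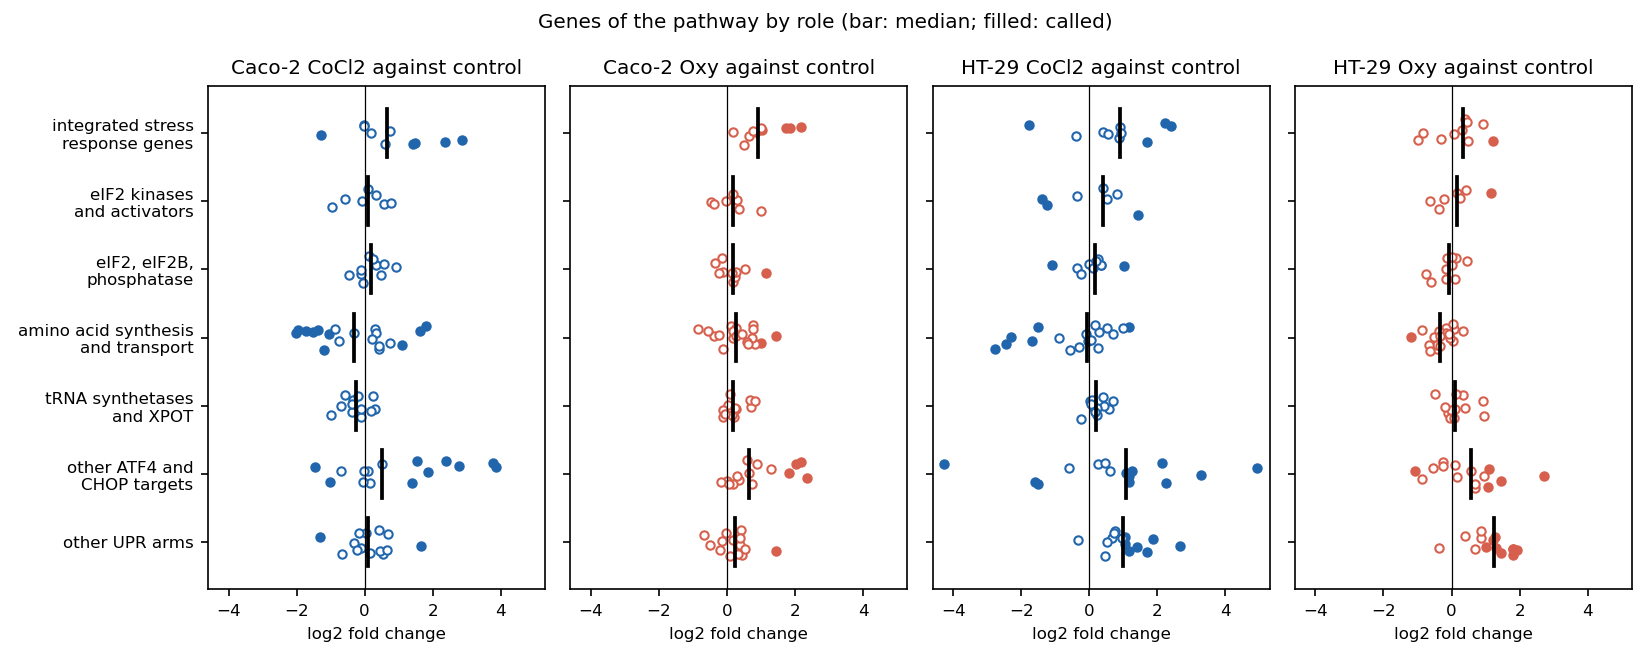
Log2 fold change against control of the 10 members and the 78 listed genes, in rows by role, with a bar at the median of each row and filled points for called genes. The unfolded protein response row lies to the right of 0 in both HT-29 panels, the amino acid row spreads to both sides with CoCl2, and the tRNA synthetase row holds no called gene.

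The genes whose pattern was most like that of each member were taken from 13943 genes tested in both lines, by the root mean square (RMS) difference of mean log2 CPM over the 6 groups, each profile centred within its line. For CHAC1 these were the noncoding AC012676.1, JDP2 and FAM111B, at RMS differences of 0.0796, 0.152 and 0.156. For VLDLR the nearest was BAG3, a cochaperone of HSP70, at 0.0503, and for TRIB3 it was RNF4 at 0.0513. GADD45A, a stress gene of growth arrest, was second for ATF3 at 0.213, with log2 fold changes of 2.61, 1.51, 1.23 and −0.65 in the 4 comparisons. PPP1R15A was nearest to INSIG2 and MXI1 at 0.164 and 0.167, and ASNS to SLC30A4 at 0.182. ATF4, ATF5 and CEBPB, whose changes were small, had nearest genes at 0.0487 (TGFBR1), 0.0377 (ZNRF2P2) and 0.0391 (NDUFA9). DDIT3 had ZBTB40-IT1, RBM15 and EAF2 within 0.107. These are descriptions over 6 group means, and the measure favours genes that move little.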

How the data were processed

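Unnormalised counts of reads in each gene, as the authors deposited them, were used with a table of log2 values, here log2 of TMM-scaled RPKM plus 1, also deposited, for 18 mRNA libraries (75-nucleotide single-end reads, stranded kit, per the study's methods for Caco-2). The submitters' notes name FastQC 0.11.9, cutadapt 2.10, STAR 2.7.5b, GRCh38.p13 and edgeR 3.30.3, without roles. The counting tool and its use of strand were not given in the sources used here. The miRNA tables were not used, and 0 per-sample columns were left without a sample.

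Groups came from the sample labels. Counts were tested with edgeR 4.0.16 (R 4.3.3): quasi-likelihood F test, two-sided, TMM scaling, filterByExpr, each line fitted alone over 9 libraries, and line differences over all 18. All 10 members passed the filter in both lines. Called means FDR under 0.05 and a log2 fold change over 1 in size. SE is the log2 fold change divided by the square root of F. CPM values use TMM-scaled library sizes. The scripts were tested on simulated data.

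All members are named in each comparison, and of each list, genes among the 3 called with the largest change in each direction in a treatment comparison, with their values in the others, and any of the kinase and eIF2 lists. MARS1, which overlaps DDIT3, and line differences of listed genes were named in addition after their values were seen. Members and lists were chosen with earlier results of these data known. Alternatives were library size scaling, DESeq2 1.42.0 and its size factors, no filter, a replicate block, 1 fit for both lines, limma 3.58.1 on the log2 table (pseudocounts 1 and 0.1), no fold limit, and each library left out.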

Additional observations from a re-analysis of the deposited data

Results flagged for a closer look

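The responses of 4 genes were called different between HT-29 and Caco-2 by the interaction test over 18 libraries (edgeR quasi-likelihood test). Called means a Benjamini-Hochberg FDR under 0.05 and a difference over 1 in size on the log2 scale. Over all genes tested, 21.6% were called for CoCl2 and 15.2% for Oxy. On the FDR alone, all but 2 of the 10 members passed for each agent, where 49.8% and 42.9% of all genes did. For ATF3 the difference, HT-29 less Caco-2, was −2.10 with CoCl2 (FDR = 2.89e-10) and −3.16 with Oxy (FDR = 6.22e-14). For DDIT3 it was 1.56 with CoCl2 (FDR = 2.17e-11), for CHAC1 −1.91 with Oxy (FDR = 5.69e-10) and for PPP1R15A −1.39 with Oxy (FDR = 2.93e-12). Line, medium and culture state cannot be told apart in these values.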

How the results depend on the processing

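Of the 10 genes, the number called in the 9 comparisons was 5, 4, 4, 1, 2, 4, 2, 3 and 8 (CoCl2 and Oxy in Caco-2, CoCl2 and Oxy in HT-29, CoCl2 against Oxy in Caco-2 and HT-29, the line difference for CoCl2 and Oxy, and the controls). With limma on the deposited log2 RPKM, where ASNS was listed at 0 in Caco-2 and 9 genes were tested, it was 3, 2 and 1 for CoCl2, Oxy and CoCl2 against Oxy in Caco-2, and with a pseudocount of 0.1 the last of these were 2 and 1. The share of all genes called also fell in these limma fits. It was 8.35%, 2.90% and 2.59%, and with a pseudocount of 0.1 it was 16.1%, 6.68% and 6.45%, against 23.4%, 11.7% and 11.7% in the main fit. Scaling by library size alone gave 2 for Oxy in HT-29, 3 for Oxy in Caco-2 and 5 for CoCl2 in HT-29. For CoCl2 against Oxy in HT-29 it kept the count of 4 with DDIT3 and PPP1R15A lost and CHAC1 and ASNS gained, and the other counts did not move. With no fold limit, 9 were past the threshold for Oxy in Caco-2, 10 and 9 for CoCl2 and Oxy in HT-29, 9 and 8 for CoCl2 against Oxy in Caco-2 and HT-29, and 8 and 8 for the line differences, as that limit alone was removed. Leaving out 1 library at a time gave from 3 to 5 genes for Oxy in Caco-2, from 4 to 6 for CoCl2 in HT-29, from 1 to 2 for Oxy in HT-29 and from 3 to 4 for the line difference in Oxy response, with 5, 2, 4, 2 and 8 in every fit of the others.

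Directions turned for genes near 0. ATF5 with CoCl2 in Caco-2 was 0.0069 with DESeq2 size factors and 0.0082 with DESeq2. With library size alone ASNS was −0.13 and −0.22 for CoCl2 in Caco-2 and HT-29 and −0.0783 for the line difference, CEBPB was −0.0883 for CoCl2 and −0.42 for CoCl2 against Oxy in HT-29, and VLDLR was −0.0632 for Oxy in HT-29. In 1 fit of 18 libraries CEBPB was −0.0131 for CoCl2 against Oxy in HT-29. Left-out libraries gave values from −0.0671 to 0.0293 for ATF5, from −0.0852 to 0.59 for ASNS and from −0.12 to 0.0477 for CEBPB with CoCl2 in Caco-2, from −0.0216 to 0.15 for VLDLR with Oxy in HT-29, and from −0.29 to 0.42 for the line difference of ASNS with CoCl2. The cause was not tested.

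Of calls not named above, DDIT3 with Oxy in Caco-2 ran from 0.88 to 1.10 and passed the fold limit without the first control, the second Oxy or the third Oxy library. CHAC1 with Oxy in Caco-2 lost its call with limma, at 0.68 and 0.95. The line difference of ASNS for Oxy ran from −1.11 to −0.70 and passed the limit without the second Caco-2 control. With library size alone ATF5 with CoCl2 in HT-29 was −1.02, and CHAC1 and ASNS for CoCl2 against Oxy in HT-29 were −1.42 and −1.01. In 1 fit of 18 libraries CHAC1 was −1.02 there.

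A fit with the replicate number as a block gave 5, 4, 4, 1, 2, 4, 2, 3 and 8 genes and changed no call of the 10. On the FDR alone, DDIT3 missed the test for CoCl2 against Oxy in Caco-2 under the block (FDR = 0.0621) and CHAC1 passed it for the line difference with CoCl2 (FDR = 0.0449). Samples with the same number did not deviate together, with correlations from −0.06 to 0.07 in Caco-2 and from −0.04 to 0.02 in HT-29, so the numbers were not read as pairing. Depth limits ASNS and CHAC1 in Caco-2 most.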
